A study of Mus musculus with 12 samples.

Results

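The 47 genes described here encode the machinery that copies DNA, and all 47 were found by symbol among the 21728 genes of the series. They cover 9 origin licensing genes, 12 helicase genes, 4 kinase and cyclin genes of origin firing, 8 polymerase and primase genes, 11 genes of the sliding clamp, its loader, single-strand binding and Okazaki fragment maturation, and 3 genes of nucleotide supply. They were measured by mRNA sequencing in 12 libraries, 3 in each of 4 groups. All groups came from 1 mouse embryonic stem cell line on a C57BL/6 background that carries the Blimp1-mVenus and Stella-ECFP reporters (BVSC), read from the genes Prdm1 and Dppa3. The stem cells were held in 2i with LIF and then cultured for 48 h in EpiLC medium, which gives epiblast-like cells (EpiLCs), a stand-in for the early post-implantation epiblast. EpiLCs placed in PGCLC medium form aggregates, from which primordial germ cell-like cells (PGCLCs), labelled day 5, were sorted as positive for both reporters. The groups are untreated EpiLCs, EpiLCs given 100 nM bisphenol A (BPA, a plasticiser) 24 h after seeding for 24 h, PGCLCs without BPA, and PGCLCs from the BPA arm. Whether BPA was also present in PGCLC medium is not stated, untreated EpiLCs received water according to their descriptions, and the labels do not say that replicates came from separate cultures. The p-values therefore measure the spread between these libraries, which may be technical.

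DNA replication starts at origins that are first licensed: the origin recognition complex (ORC), Cdc6 and Cdt1 load the MCM2-7 ring onto DNA, and geminin (Gmnn) blocks Cdt1 so that origins are not loaded again in the same cycle. Cdc7 with Dbf4 and the cyclin E kinase then fire the origin by recruiting Cdc45 and the GINS complex, which turn MCM2-7 into the active helicase. Polymerase alpha with primase starts each strand, polymerases delta and epsilon extend it on the PCNA clamp loaded by RFC, RPA covers single-stranded DNA, and ribonucleotide reductase and thymidylate synthase supply the building blocks. Many of these genes are textbook targets of E2F transcription factors, which switch them on as cells enter S phase, and both pluripotent epiblast cells and early germ cells are cycling cells.

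The germ cell markers were higher in the libraries labelled PGCLC, and the epiblast markers followed the labels in part. The summed level of 6 germ cell markers lay between 39.5 and 49.2 CPM (counts per 1000000, on the effective library size) in the EpiLC libraries. It lay between 589 and 817 CPM in the PGCLC libraries. Prdm1 and Dppa3, at means of 191 and 234 CPM in untreated PGCLCs, are the genes read by the reporters of the sort. Their rise, and so that of the sum, is no independent check of the labels. Prdm14 was unlisted in EpiLCs and had a mean of 70.8 CPM in untreated PGCLCs. Means in untreated EpiLCs and PGCLCs were 5.18 and 243 CPM for Tfap2c, 9.02 and 18.9 CPM for Dnd1, and 1.10 and 6.05 CPM for Nanos3. Of 5 epiblast markers, Dnmt3b, Pou3f1 and Sox3 were lower in untreated PGCLCs than in untreated EpiLCs (log2 -1.73, -1.71 and -3.54), Fgf5 did not pass the test (7.05 and 5.11 CPM in EpiLCs and PGCLCs), and Otx2 was higher in PGCLCs (11.5 and 77.3 CPM, log2 2.75). Gene counts per library ran from 11785338 to 34309195, every member was listed in every library, and the lowest count of a member in any library was 86. Replicate 3 of the untreated EpiLCs was unlike its group, with 12.6% of its counts on ribosomal protein genes against 7.30% to 8.27% in the other EpiLC libraries. The summed level of 10 endoderm markers was 6.48 to 8.34 CPM in EpiLCs, with Afp, Ttr, Sox17 and Gata6 unlisted in all 6 libraries. It was 731 to 1149 CPM in untreated PGCLCs and 9498, 10004 and 4837 CPM in replicates 1, 2 and 3 of the BPA arm, where Apob and Afp had the highest means of the 10. In bulk libraries, fewer cells of a type and less RNA per cell cannot be told apart. EpiLC and PGCLC libraries, and the 2 PGCLC groups, carry different library naming schemes, so a library batch and the group cannot be told apart in these comparisons.

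Some promoters of the members hold short strings of letters that the choice of genes did not use. RefSeq (GRCm38.p6) gave a promoter window, from 250 bases before to 50 bases after the annotated start, for 38 of the 47 members. The windows were searched on both strands for 4 strings that resemble the E2F binding motif: TTTCCCGC, TTTCGCGC, TTTGCCGC and TTTGGCGC. Such a string was present for 14 of the 38 members (36.8%) and for 2.6% of the 27025 genes with a promoter window. In a comparison list for mitosis it was present for 1 of 29 genes (3.45%). It was present for 10 of 29 further fork and origin genes (34.5%) and 5 of 10 genes for E2F, DP and pocket proteins (50%). Of 16 further nucleotide supply genes none had a match, and of 9 D cyclin and CDK inhibitor genes 1 did (11.1%). The strings are thus not particular to the members. The following windows show the strings in 6 licensing and helicase members, with the matches in capitals, each written 5′ to 3′ along the gene's strand.
Orc1: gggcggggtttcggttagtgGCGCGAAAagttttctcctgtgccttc
Cdc6: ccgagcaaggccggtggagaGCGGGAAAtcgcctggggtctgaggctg
Mcm5: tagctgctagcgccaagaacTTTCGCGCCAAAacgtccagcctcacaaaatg
Mcm6: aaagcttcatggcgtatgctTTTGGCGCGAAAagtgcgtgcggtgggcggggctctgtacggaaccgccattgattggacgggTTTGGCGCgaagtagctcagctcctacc
Mcm7: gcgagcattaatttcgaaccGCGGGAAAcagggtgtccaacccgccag
Gins3: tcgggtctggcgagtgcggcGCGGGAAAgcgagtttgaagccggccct
These windows lie at chr4:108579407-108579453 on the plus strand (Orc1), chr11:98907993-98908040 on the plus strand (Cdc6), chr8:75109336-75109387 on the plus strand (Mcm5), chr1:128359725-128359835 on the minus strand (Mcm6), chr5:138172021-138172068 on the minus strand (Mcm7) and chr8:95633498-95633545 on the plus strand (Gins3). All lie upstream of the RefSeq start from which the promoter window was set, since only upstream matches were printed. Mcm7 holds a further match downstream of that start, within the 50 bases searched, which is not shown. By the GENCODE M21 gene annotation, those of Cdc6, Mcm7 and Gins3 lie inside the gene and that of Orc1 spans the gene's start. In Mcm5 the long capital run holds 2 overlapping matches on opposite strands, and Mcm6 holds 3 matches, 2 of them overlapping.

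By role, the E2F-type strings were found for 4 of 8 licensing members with a window, 5 of 8 helicase members, 3 of 6 polymerase and primase members and 2 of 10 members of the clamp group, and for none of the 3 firing and 3 nucleotide supply members. A second string, TTTGAA, resembles the CHR element of G2 and M phase genes. It was found in the windows of 18.4% of members, 20.2% of all genes and 69% of the mitosis list. The string CCAAT, bound by NF-Y, was found for 60.5% of members, 41.1% of all genes and 69% of the mitosis list. Matches of different strings were searched separately and may overlap. The windows of the members had a median GC content of 60.8%, those of the mitosis list 59% and those of all genes 52.8%. A match is a description of letters and not evidence of binding.

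**Figure D1:**
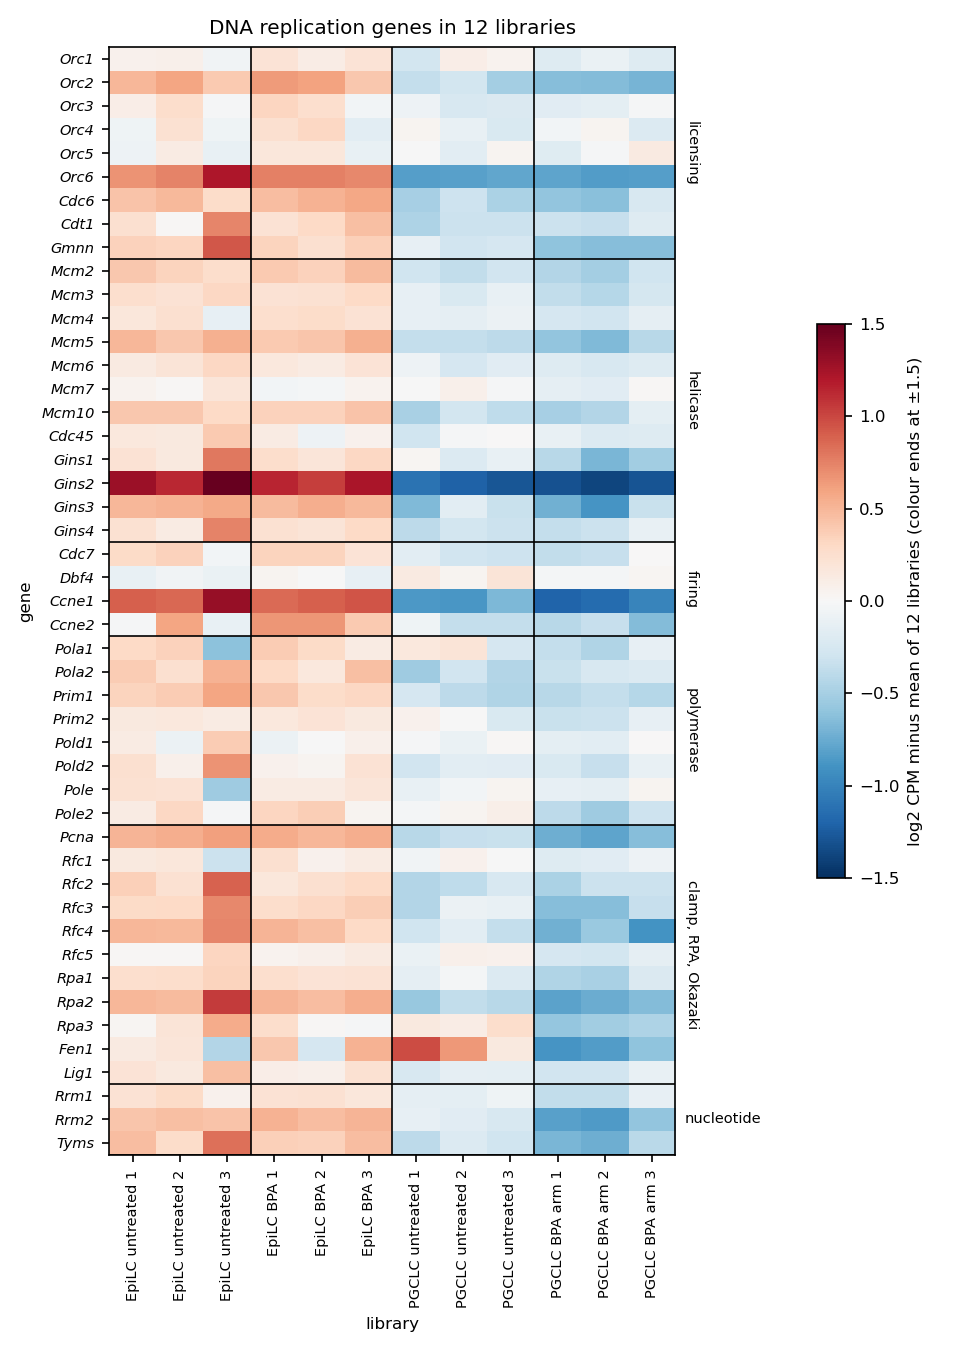
Level of each of the 47 members (rows, grouped by role) in each of the 12 libraries (columns), as log2 CPM minus that gene's mean over the 12 libraries; the colour scale ends at 1.5 in either direction. Gins2, Ccne1 and Orc6 show the strongest contrast between EpiLC and PGCLC libraries, and untreated EpiLC replicate 3 differs from its group for several genes.

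The comparison of untreated PGCLCs with untreated EpiLCs asks how the replication genes differ between the stages without BPA. Most members were lower in PGCLCs: 31 of 47 fell and 1, Dbf4, rose in the edgeR quasi-likelihood test with Benjamini-Hochberg adjustment over 17608 genes (threshold 0.05), and 15 did not pass. Among all genes tested, 55.6% were called, 25.2% lower and 30.4% higher. The median log2 change of the members was -0.46, against 0.07 for all genes. The 3 PGCLC libraries lay below all 3 EpiLC libraries for 32 members and above them for 1, while 28.2% of all genes were separated downwards and 32.1% upwards. The members together held 0.931% to 0.954% of the gene counts of an EpiLC library and 0.645% to 0.662% of those of an untreated PGCLC library. Endoderm marker levels were higher in the same PGCLC libraries, and their part in the stage difference was not tested.

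Among the origin licensing genes, 6 of 9 fell and 3 did not pass the test. Orc6, the smallest ORC subunit, stood at 172, 181 and 249 CPM in untreated EpiLCs and at 61.0, 61.5 and 62.8 CPM in untreated PGCLCs. It was 3.24-fold lower (log2 -1.70 ± 0.12 SE, adjusted p = 4.9e-07), and the groups did not overlap. Orc2 went from 146, 156 and 136 CPM to 80.8, 85.4 and 73.0 CPM (log2 -0.87 ± 0.10, adjusted p = 1.4e-05). Cdc6, the ATPase that completes the ORC ring, went from 99.6, 103 and 89.2 CPM to 52.4, 59.4 and 53.1 CPM (log2 -0.82 ± 0.12, adjusted p = 9.3e-05). Both genes were lower in every PGCLC library than in any EpiLC library. The loader Cdt1 and its inhibitor Gmnn fell by similar amounts, with log2 changes of -0.73 and -0.78. In both, EpiLC replicate 3 was well above the other EpiLC libraries, at 335 CPM for Cdt1 and 154 CPM for Gmnn. Orc3 passed the test narrowly (log2 -0.30, adjusted p = 0.042), and 9 of 13 alternative analyses lost that call. Orc1, Orc4 and Orc5, which encode ATPase-type subunits of the complex, had log2 changes of -0.06, -0.13 and -0.03 and did not pass.

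The ORC genes differ in level as well as in change. Levels per kilobase were taken over all annotated exons of a gene merged, which can exceed the length of the transcripts present. Differences between genes on this scale, here and below, therefore depend on the annotation. The merged length was 2469 bases for Orc6 and 7458 for Orc4. On this scale Orc6 had the highest level of the ORC genes in untreated EpiLCs, at 81.2 ± 17.1 CPM per kb (SD, n = 3). Orc4 had the lowest, at 5.87 ± 0.71. The highest level was 13.8 times the lowest in untreated EpiLCs and 4.67 times in untreated PGCLCs, where Orc6 stood at 25.0 ± 0.39 and Orc4 at 5.35 ± 0.51 CPM per kb.

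Of the 12 helicase genes, 10 fell. Within the MCM2-7 ring, Mcm5 fell furthest, from 671, 627 and 689 CPM to 369, 371 and 361 CPM (log2 -0.85 ± 0.09, adjusted p = 6.1e-06). Mcm2, Mcm3 and Mcm6 fell with log2 changes of -0.65, -0.41 and -0.38. Mcm4 (log2 -0.22, adjusted p = 0.066) and Mcm7 (log2 -0.07, adjusted p = 0.48) did not pass. Mcm7 stood at 486, 475 and 533 CPM in EpiLCs and 467, 493 and 462 CPM in PGCLCs, so its groups overlapped. The ring holds 1 copy of each subunit. Summed over the 6 genes, the level was 717 CPM per kb in untreated EpiLCs and 531 in untreated PGCLCs. Mcm5 had the highest level per kb of the 6 in EpiLCs (166 ± 7.90), and in PGCLCs Mcm3 (109 ± 4.93) and Mcm7 (107 ± 3.86) lay above Mcm5 (91.9 ± 1.27).

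The GINS genes held the largest change of all members. Gins2 stood at 131, 118 and 186 CPM in untreated EpiLCs and 25.1, 23.3 and 22.2 CPM in untreated PGCLCs, 6.16-fold lower (log2 -2.62 ± 0.15, adjusted p = 7.5e-08). Its partners in the same 4-subunit complex fell less. Gins3 went from 24.9, 25.2 and 26.2 CPM to 11.2, 15.8 and 14.0 CPM (log2 -0.90 ± 0.16, adjusted p = 0.00055), and Gins4 and Gins1 had log2 changes of -0.72 and -0.51. All 4 were lower in each PGCLC library than in any EpiLC library. Orc6 lies at chr8:85299632-85308278 on the plus strand, Ccne1 at chr7:38097984-38107534 on the minus strand and Gins2 at chr8:120578633-120589304 on the minus strand (mm10, GENCODE M21). Over Gins2, on the opposite strand, Gse1 covers 67.3% of the annotated exon length of Gins2, and no source used here says whether counting used strand, so the level of Gins2 is uncertain. Gse1 itself rose (log2 1.36, adjusted p = 9.0e-05). Of the other helicase factors, Mcm10, an initiation factor, fell (log2 -0.74) and Cdc45 fell (log2 -0.34, adjusted p = 0.021).

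**Figure D2:**
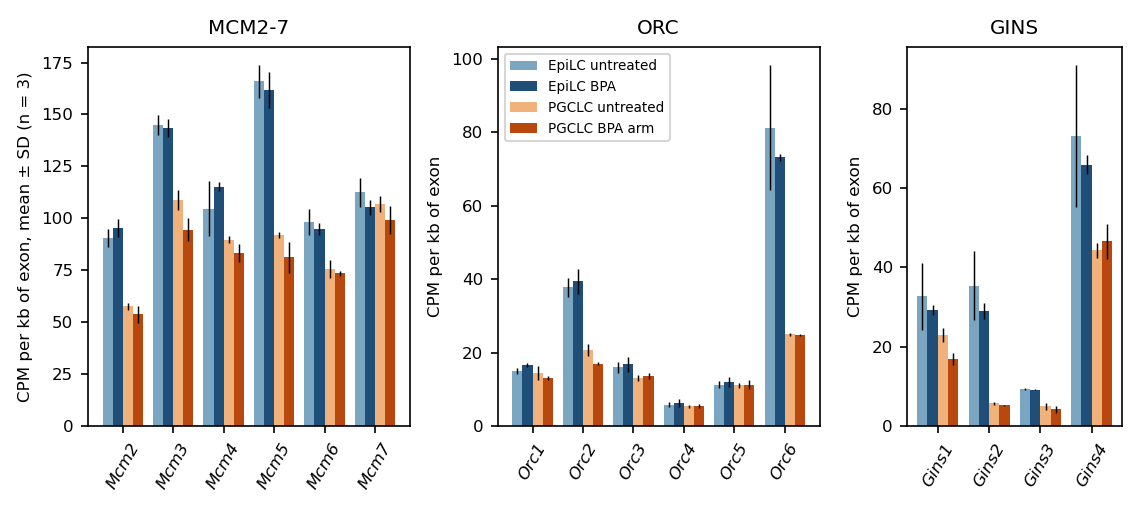
Mean level per kilobase of exon (CPM per kb, bars start at 0; error bars, SD of 3 libraries) of the subunits of MCM2-7, ORC and GINS in the 4 groups. Mcm5, Orc6 and Gins2 were lower in PGCLCs of both arms, while Mcm7 and Orc4 were near the same level in all groups.

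The 4 genes of origin firing moved in different directions. Ccne1, which encodes cyclin E1, was 3.56-fold lower, going from 335, 328 and 445 CPM to 99.5, 98.5 and 113 CPM (log2 -1.83 ± 0.12, adjusted p = 2.5e-07), with no overlap. Its paralog Ccne2 had a log2 change of -0.44 and did not pass (adjusted p = 0.059). The kinase gene Cdc7 fell (log2 -0.46, adjusted p = 0.0099). Dbf4, which encodes the activating subunit of the Cdc7 kinase, was at 189, 198 and 191 CPM in EpiLCs and 224, 211 and 233 CPM in PGCLCs (log2 0.21 ± 0.08, adjusted p = 0.037). The Dbf4 groups did not overlap, but 10 of 13 alternative analyses lost that call, with adjusted p up to 0.20.

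The polymerase and primase genes changed least, with 3 of 8 falling and a median log2 change of -0.19. The 2 that fell most belong to the complex that primes each strand. Prim1, the catalytic primase subunit, went from 82.5, 85.2 and 98.5 CPM to 54.9, 49.7 and 47.8 CPM (log2 -0.81 ± 0.10, adjusted p = 2.7e-05). Pola2, the accessory subunit of polymerase alpha, went from 171, 156 and 190 CPM to 91.0, 108 and 97.2 CPM (log2 -0.80 ± 0.11, adjusted p = 6.9e-05). Their partners Pola1, the catalytic subunit, and Prim2 had log2 changes of -0.03 and -0.20 and did not pass. The third gene that fell was Pold2, the accessory subunit of polymerase delta (log2 -0.56, adjusted p = 0.0046). The catalytic genes Pold1 and Pole, at log2 -0.19 and -0.05, and Pole2, at -0.12, did not pass. Pola1 and Pole were at 55.4 and 141 CPM in untreated EpiLC replicate 3 against 105 and 108, and 240 and 237, in replicates 1 and 2. In the BPA arm, whose groups do not hold that library, 5 of these 8 genes fell, with a median log2 change of -0.50. The part of replicate 3 in the smaller change of untreated cells was not tested.

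Of the 11 genes for the clamp, its loader, single-strand binding and Okazaki fragment maturation, 7 fell. Pcna, the sliding clamp, went from 423, 432 and 457 CPM to 223, 233 and 236 CPM (log2 -0.92 ± 0.08, adjusted p = 1.2e-06). Rpa2, the middle subunit of RPA, went from 161, 158 and 236 CPM to 76.8, 88.0 and 85.4 CPM (log2 -1.15 ± 0.14, adjusted p = 3.0e-05). Both genes were separated between the stages in every library. Within RPA, Rpa1 fell (log2 -0.41) and Rpa3 did not pass (log2 -0.09, adjusted p = 0.59). Within the clamp loader, Rfc2 went from 101, 92.6 and 146 CPM to 58.5, 60.7 and 67.1 CPM (log2 -0.87 ± 0.15, adjusted p = 0.00039). Rfc4 went from 64.8, 63.9 and 76.0 CPM to 37.1, 41.2 and 35.8 CPM (log2 -0.84 ± 0.12, adjusted p = 9.8e-05). Rfc3 fell (log2 -0.65), while Rfc5 (log2 -0.11) and Rfc1, the large subunit (log2 -0.01), did not pass. Of the 2 enzymes that finish Okazaki fragments, the ligase gene Lig1 fell (log2 -0.45, adjusted p = 0.0022). The flap nuclease gene Fen1 was at 9.23, 9.56 and 6.20 CPM in EpiLCs and 16.6, 13.2 and 9.36 CPM in PGCLCs (log2 0.64, adjusted p = 0.051). The opposite-strand genes Gm10143 and Tmem258 cover 84.2% of the annotated exon length of Fen1, so its level is uncertain too. Smaller overlaps with other annotated genes affect Orc2 (29.8%, by the opposite-strand gene Nif3l1), Ccne2 (17.4%), Rfc2 (15.1%), Rfc4 (12.7%), Mcm7 (12.6%), Orc1 (10.8%) and Rfc5 (10.7%).

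All 3 genes of nucleotide supply fell. Tyms, thymidylate synthase, went from 118, 103 and 152 CPM to 65.3, 74.2 and 69.9 CPM (log2 -0.83 ± 0.14, adjusted p = 0.00034). Rrm2, the small subunit of ribonucleotide reductase whose level follows S phase, went from 465, 476 and 467 CPM to 321, 310 and 294 CPM (log2 -0.61 ± 0.08, adjusted p = 8.0e-05). Rrm1, the large subunit, fell less (log2 -0.31, adjusted p = 0.014). Per kb, the level of Rrm2 was 6.46 times that of Rrm1 in untreated EpiLCs and 5.26 times in untreated PGCLCs. The merged exon length was 2771 bases for Rrm2 and 11012 for Rrm1, so the size of this ratio depends on the annotation.

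The members with an E2F-type string did not stand out by their change. Of the 14 with a match, 9 fell and their median log2 change was -0.39. Of the 24 with a window and no match, 17 fell and the median was -0.58. Mcm7 and Orc1, shown above with a match, were among the members that did not pass, and Orc6 and Ccne1, 2 of the 3 largest changes, had a window without a match.

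**Figure D3:**
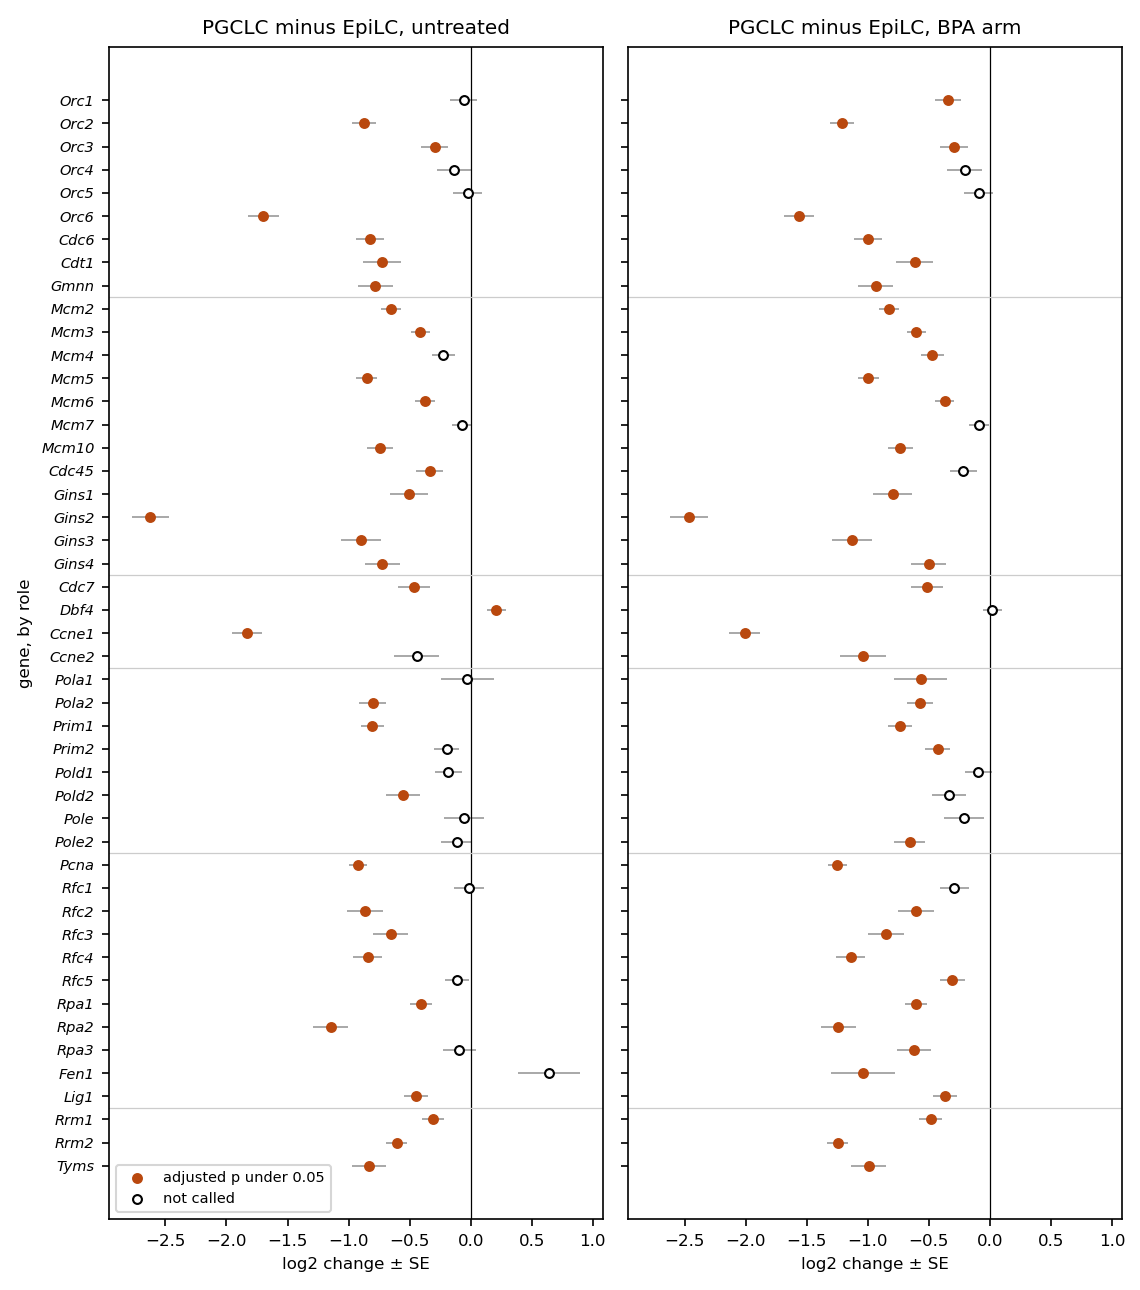
Log2 change of each member in PGCLCs relative to EpiLCs, for untreated cells and for the BPA arm, with standard errors; filled points have an adjusted p under 0.05 (edgeR quasi-likelihood). Nearly all points lie left of 0 in both panels, with Gins2, Ccne1 and Orc6 farthest out.

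The same stage comparison within the BPA arm contrasts the means of 6 other libraries. Both stage comparisons come from 1 fit of 12 libraries and share its estimate of the spread. In PGCLCs of the BPA arm relative to BPA-treated EpiLCs, 38 of 47 members fell and none rose, and 9 did not pass. Of all 17608 genes, 57.5% were called, 25% lower and 32.5% higher. The median log2 change was -0.61 for the members and 0.13 for all genes, and 41 members were separated downwards between the groups, against 32.7% of all genes. By role, 7 of 9 licensing, 10 of 12 helicase, 3 of 4 firing, 5 of 8 polymerase and primase, 10 of 11 clamp group and 3 of 3 nucleotide supply genes fell. The members called lower in both arms numbered 29, which is 93.5% of those in untreated cells and 76.3% of those in the BPA arm. The matching shares over all genes were not computed, so these shares cannot be read as particular to the members. Cdc45 and Pold2 were called in untreated cells alone, and Ccne2, Fen1, Mcm4, Orc1, Pola1, Pole2, Prim2, Rfc5 and Rpa3 in the BPA arm alone. Mcm7, Orc4, Orc5, Pold1, Pole, Rfc1 and Dbf4 were called lower in neither. A gene called in 1 arm alone is not thereby shown to differ between the arms; that difference was tested as an interaction.

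The genes with the largest changes in untreated cells also fell in the BPA arm. The log2 changes were -2.46 for Gins2, -2.01 for Ccne1, -1.56 for Orc6, -1.24 for Rpa2 and -1.25 for Pcna. They were -1.13 for Gins3, -1.21 for Orc2, -0.61 for Rfc2, -0.99 for Mcm5 and -1.14 for Rfc4, and -0.99 for Tyms, -0.74 for Prim1 and -0.57 for Pola2, and Cdc6 was 1.99-fold lower. Gins2, for example, stood at 120, 111 and 127 CPM in BPA-treated EpiLCs and at 21.9, 20.8 and 22.1 CPM in the PGCLCs of this arm. Rrm2 had the largest change outside these genes, from 500, 482 and 497 CPM to 199, 194 and 231 CPM (log2 -1.25 ± 0.09, adjusted p = 2.2e-07). The level of Rrm2 per kb was 6.72 times that of Rrm1 in BPA-treated EpiLCs and 3.97 times in PGCLCs of the BPA arm.

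The order of the members by level also differed between the stages. Pcna, Rrm2 and Mcm5 had the 3 highest levels per kb of merged exon in untreated EpiLCs, at 182 ± 7.25, 169 ± 2.16 and 166 ± 7.90 CPM per kb. In untreated PGCLCs Rrm2 (111 ± 4.81), Mcm3 (109 ± 4.93) and Mcm7 (107 ± 3.86) came first, and these 3 differed by less than their spread. In PGCLCs of the BPA arm Mcm7 (99.3 ± 6.89) and Mcm3 (94.6 ± 5.47) came first. Fen1, Orc4, Ccne2 and Gins3 were among the 4 lowest in both EpiLC groups and in untreated PGCLCs. The rank of Fen1 is as uncertain as its level, since opposite-strand genes cover 84.2% of its annotated exon length. Outside the gene lists, the genes whose log2 CPM followed the mean standardised level of the members most closely over the 12 libraries were Ppp1r8, Dab1, Sfrp2, Pdgfrl and Sdc1, with Pearson r of 0.995 to 0.996. These correlations are descriptions, and most of the variation behind them is the difference between stages.

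Other genes that act at the fork and in nucleotide supply fell more often than they rose in the untreated stage comparison. Mitosis genes rose more often than they fell, while of all genes tested 30.4% rose and 25.2% fell. Of 36 further fork and origin genes, 17 fell and 5 rose, with a median log2 change of -0.29. Tipin, a fork protection factor, went from a mean of 288 to 111 CPM (log2 -1.38) and Recql4, a helicase of origin firing, fell (log2 -1.17), while Ticrr, which brings Cdc45 to origins, went from 80.0 to 286 CPM (log2 1.84) and Rif1, a regulator of replication timing, rose (log2 1.01). Of 18 further nucleotide supply genes, 11 fell and none rose, with a median of -0.53. Tk1, thymidine kinase, went from 158 to 39.8 CPM (log2 -1.99), and Nme1 and Guk1 fell with log2 changes of -1.76 and -1.54. Of 34 mitosis genes, 21 rose and 4 fell, with a median of 0.30. Cenpf, a kinetochore protein, went from 150 to 576 CPM (log2 1.94) and Mki67, the proliferation marker Ki-67, from 273 to 727 CPM (log2 1.41). Mybl2 and Anln also rose, with log2 changes of 1.18 and 0.92.

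The regulators of the G1 to S transition moved in both directions, as did all genes tested, of which 30.4% rose and 25.2% fell. Of 13 genes for E2F, DP and pocket proteins, 5 rose and 3 fell. Rb1, the retinoblastoma protein that restrains E2F, rose from a mean of 11.2 to 35.1 CPM (log2 1.63) and E2f2 rose (log2 1.39), while the E2F partner Tfdp1 went from 435 to 184 CPM (log2 -1.24) and E2f6 fell (log2 -1.23). Of 12 D cyclins, partner kinases and CDK inhibitors, 3 rose and 4 fell. Ccnd1 went from 160 to 30.0 CPM (log2 -2.42) and Ccnd3 from 61.8 to 276 CPM (log2 2.16). The inhibitor gene Cdkn1b (p27) rose from 17.5 to 62.7 CPM (log2 1.84), and Cdkn2a fell (log2 -1.86). Within the BPA arm, 4 of 36 fork and origin genes were higher and 19 lower. Of 18 nucleotide supply genes, none was higher and 15 were lower. Of 34 mitosis genes, 12 were higher and 5 lower, and of all genes tested 32.5% were higher and 25% lower.

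**Figure D4:**
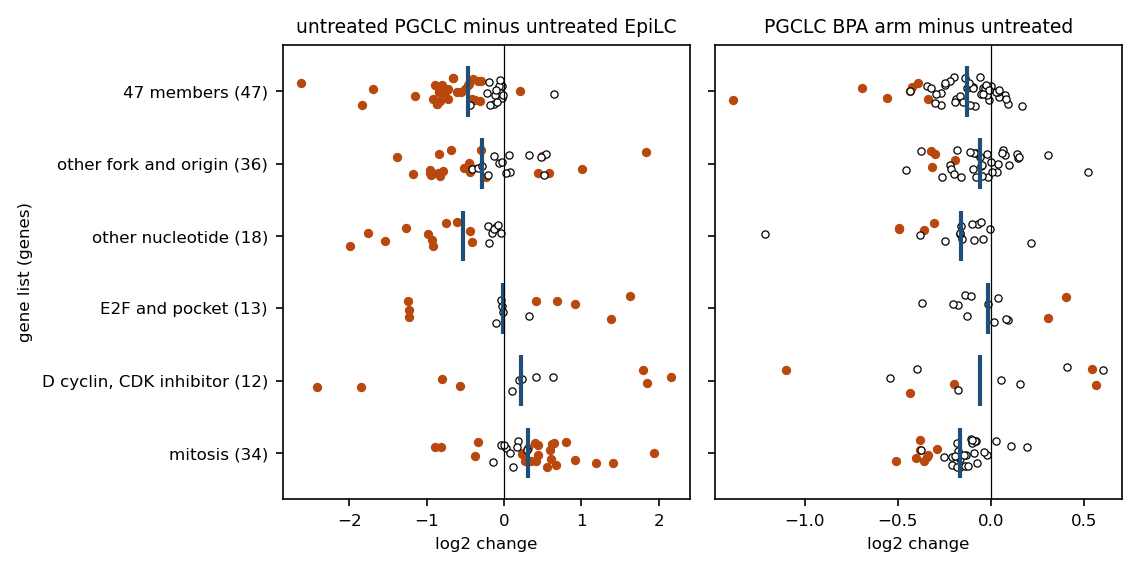
Log2 change of every gene (points; filled, adjusted p under 0.05) in the members and the 5 comparison lists, for untreated PGCLCs against untreated EpiLCs (left) and PGCLCs of the BPA arm against untreated PGCLCs (right); vertical bars are medians. In the left panel the median is -0.46 for the members and 0.30 for the mitosis list, and in the right panel both medians are below 0.

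In PGCLCs, the comparison of the BPA arm with untreated cells asks whether the replication genes differ after BPA exposure at the level of these libraries. Of the 47 members, 7 fell and none rose, against 5.72% of 16753 genes called lower and 8.13% called higher. The median log2 change was -0.13 for the members and 0.01 for all genes, and 13.9% of all genes were called in either direction. In 19 members every BPA-arm library lay below every untreated library, and in none above, while 17.3% of all genes were separated downwards and 17.9% upwards. The 7 genes span all roles but origin firing: Gmnn from licensing, Gins1 from the helicase, Pole2 from the polymerases, Fen1, Rpa3 and Pcna from the clamp group and Rrm2 from nucleotide supply.

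Rrm2 stood at 321, 310 and 294 CPM in untreated PGCLCs and at 199, 194 and 231 CPM in the BPA arm, 1.47-fold lower (log2 -0.56 ± 0.08, adjusted p = 0.0042). Rpa3, the smallest RPA subunit, stood at 35.4, 34.6 and 38.4 CPM and at 21.3, 22.1 and 23.1 CPM, 1.61-fold lower (log2 -0.69 ± 0.10, adjusted p = 0.0054). Rrm2 lies at chr12:24708241-24714146 on the plus strand and Rpa3 at chr6:8255936-8259173 on the minus strand. Neither gene overlapped between the groups, and both kept the call under all 13 alternative analyses. In both, BPA-arm replicate 3 was the nearest to the untreated libraries.

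Fen1 fell the most, from 16.6, 13.2 and 9.36 CPM to 4.58, 4.72 and 5.57 CPM (log2 -1.38 ± 0.24, adjusted p = 0.0098). The untreated libraries were widely spread and none overlapped the BPA arm. Tmem258, the opposite-strand gene over most of Fen1, also fell in this comparison (log2 -0.51, adjusted p = 0.028), and the part of its reads in the value of Fen1 was not tested. Pcna went from 223, 233 and 236 CPM to 179, 172 and 191 CPM (log2 -0.34 ± 0.06, adjusted p = 0.010), and Gmnn from 73.8, 66.0 and 67.4 CPM to 53.2, 51.8 and 51.9 CPM (log2 -0.39 ± 0.08, adjusted p = 0.019). Both were lower in every BPA-arm library. Pole2, an accessory subunit of polymerase epsilon, went from 24.9, 26.1 and 26.9 CPM to 19.4, 17.6 and 20.4 CPM (log2 -0.43 ± 0.11, adjusted p = 0.041). Gins1 went from 37.8, 32.3 and 34.4 CPM to 27.8, 23.1 and 25.8 CPM (log2 -0.43 ± 0.11, adjusted p = 0.043). The groups did not overlap for either gene, but 8 of 13 alternative analyses lost each of these calls.

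**Figure D5:**
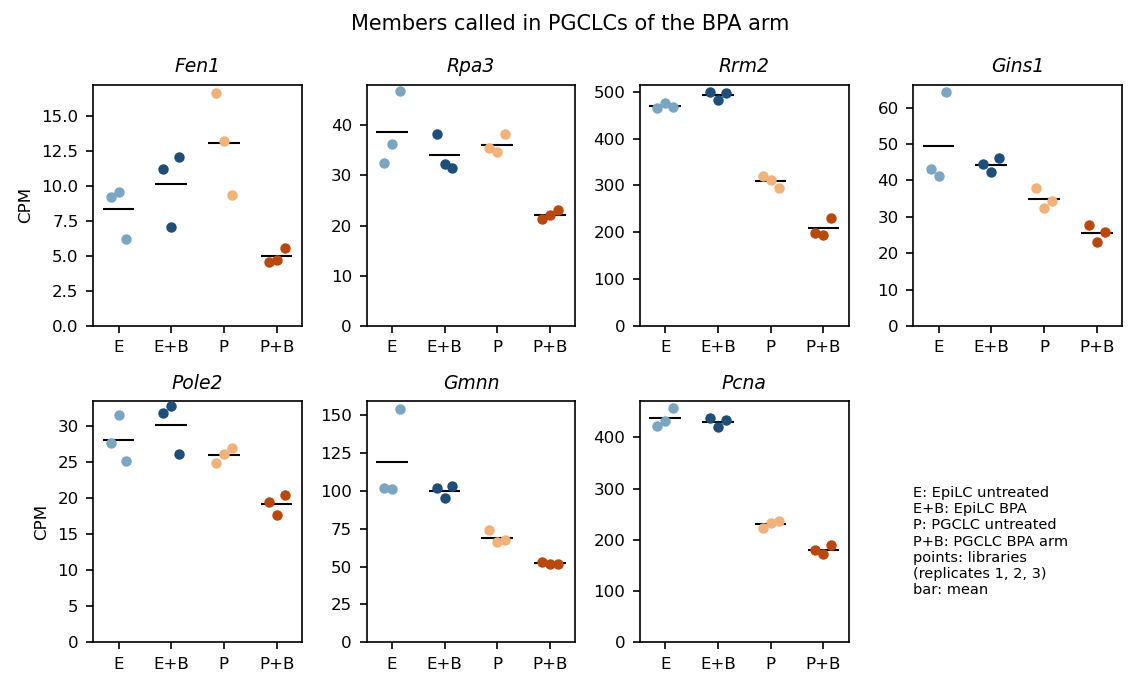
CPM of the 7 members called lower in PGCLCs of the BPA arm, in every library of the 4 groups (points, replicates 1 to 3 from left to right; bars, group means; axes start at 0). For all 7 the BPA-arm PGCLC libraries lie below the untreated PGCLC libraries, and the EpiLC groups overlap except for Rrm2.

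The count of called members in PGCLCs depended on single libraries. It was 2 without BPA-arm replicate 1 or without replicate 2, 3 without untreated replicate 3, and 14 without BPA-arm replicate 3. Calls over all genes moved in the same direction, from 2321 of 16753 genes to 677 of 17772 and 668 of 17730 without BPA-arm replicate 1 or 2, 891 of 17585 without untreated replicate 3, and up to 3206 of 17417 once BPA-arm replicate 3 was left out. Fen1, Pcna and Gmnn lost their calls without BPA-arm replicate 1 or 2. The share of gene counts on the members was 0.562%, 0.562% and 0.653% in BPA-arm replicates 1, 2 and 3, so replicate 3 lay within the range of untreated PGCLCs. The endoderm markers were highest in replicates 1 and 2 and lower in replicate 3, and in the same libraries the germ cell markers summed to 604, 589 and 650 CPM against 703 to 817 CPM in untreated PGCLCs. Of the 10 endoderm markers, 6 were called higher in this comparison and none lower. Of the 6 germ cell markers, 3 were called lower and none higher: Prdm14, Tfap2c and Prdm1, with log2 changes of -0.63, -0.41 and -0.32. Mesoderm, trophoblast, and blood and endothelial markers summed to 97.8 to 109, 33.7 to 40.2 and 190 to 223 CPM in the BPA arm and to 95.8 to 125, 37.7 to 52.0 and 188 to 210 CPM in untreated PGCLCs. Within these lists, Mixl1 was higher in the BPA arm, at 14.7, 15.2 and 0.59 CPM against 0.64 CPM in untreated replicate 3 and unlisted in untreated replicates 1 and 2 (adjusted p = 0.041), so replicates 1 and 2 stood apart from replicate 3 again. Cdx2 was higher too (log2 1.71, adjusted p = 0.033), and Kdr and Krt7 were lower (log2 -0.95 and -0.85, adjusted p = 0.046 and 0.035). The part of other cell types in these differences was not tested.

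Most members lay on the same side in this comparison. Of all 47, with the 7 called ones included, 39 had a negative log2 change. An unadjusted edgeR p under 0.05 was found for 19 of the 47, against 28.8% of all genes. Of the members that did not pass, Rfc4 and Ccne1 came closest, with adjusted p of 0.052 and 0.055. Orc6, at 61.0, 61.5 and 62.8 CPM and 62.3, 60.5 and 60.9 CPM, overlapped between the PGCLC groups, and so did Cdt1 and Pola2. Of all genes tested, 5.72% fell and 8.13% rose. In the other lists, 8 of 34 mitosis genes fell and none rose. Of 36 fork and origin genes 4 fell, of 18 nucleotide supply genes 4 fell, and none of either list rose. Examples are Ube2c (log2 -0.51), a ubiquitin enzyme of mitotic exit, Cdk1 (log2 -0.40), Top2a (log2 -0.32), Dtymk (log2 -0.50) and Dut (log2 -0.36). Of the 13 genes for E2F, DP and pocket proteins, E2f6 and E2f4 rose (log2 0.41 and 0.31) and none fell. Of the 12 D cyclins, partner kinases and CDK inhibitors, Cdkn2a and Cdkn1c rose (log2 0.56 and 0.55) and Cdk6, Ccnd3 and Cdk4 fell (log2 -1.10, -0.43 and -0.20), where Cdk4 and the single markers above were named after their values were seen.

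In EpiLCs, 100 nM BPA for 24 h changed no member past the threshold, and edgeR called none of the 15252 genes tested (0%). At an unadjusted p under 0.05 there were 118 genes and no member, and DESeq2 called 16 genes and no member. The median log2 change was -0.01 for the members and 0.00 for all genes, with 21 members positive and 26 negative, and the standard errors ran from 0.09 (Rrm2) to 0.26 (Pola1). The smallest p-values belonged to Ccne2, Cdc45, Orc1, Gins2 and Rfc2. Ccne2 stood at 22.7, 34.6 and 21.2 CPM without and 36.2, 36.4 and 30.0 CPM with BPA (log2 0.40 ± 0.21), Cdc45 at 75.8, 75.3 and 88.8 CPM and 74.0, 64.5 and 71.1 CPM (log2 -0.18 ± 0.12), and Orc1 at 53.5, 54.2 and 49.3 CPM and 59.3, 55.5 and 59.2 CPM (log2 0.16 ± 0.11). Each of these had an adjusted p of 0.94 in the edgeR test. Gins2 and Rfc2 had log2 changes of -0.26 each. Without untreated replicate 3, the changes of all 5 genes were smaller: 0.25 for Ccne2, -0.11 for Cdc45, 0.11 for Orc1, -0.07 for Gins2 and -0.06 for Rfc2. Without untreated replicate 2, that of Ccne2 was 0.65. Cdc45 and Rpa1 were separated downwards and Orc1 and Rrm2 upwards, against 3.53% and 2.5% of all genes.

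Whether the BPA effect differed between the stages was tested as an interaction in the fit of all 12 libraries. Rrm2 was the 1 member that passed: its log2 difference between BPA and untreated was -0.56 in PGCLCs and 0.09 in EpiLCs, each fitted within its stage, and the interaction was -0.64 ± 0.12 (edgeR adjusted p = 0.023). Among all genes, 1.32% passed, and 0.312% passed with a lower effect in PGCLCs. The call was lost in 7 of 18 alternative analyses, in each with the same direction, and adjusted p ran from 2.8e-07 to 0.091 over them. Fen1 had the largest interaction, -1.68 ± 0.37, and did not pass (adjusted p = 0.051). Pcna, Pole2, Rpa3, Orc2 and Ccne2 had unadjusted p under 0.05 and adjusted p of 0.18 to 0.34. For the other members no difference in BPA effect between stages was detected at this number of libraries.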

How the data were processed

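Polyadenylated RNA libraries (NuGEN Universal Plus, strand-specific per the labels' protocols) were sequenced for 12 samples. Per the submitters' processing notes, reads were handled with bcl2fastq 2.19.1.403, FastQC, STAR and HTSeq on mm10; no source used here gives the strand setting or the other versions. The deposited counts are HTSeq gene counts, and genes under 10 counts in a library are unlisted and were set to 0. The CPM values in the authors' deposited matrices equal those counts divided by a constant per library and were used to link Ensembl IDs to symbols. Of 21728 genes, 21695 were in GENCODE M21, which gave coordinates and exon lengths, with all annotated exons of a gene merged. Reads with no feature (4.42% to 10.7%) and ambiguous reads (4.56% to 6.07%) were left out of library sizes.

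CPM printed in the text are counts over the TMM effective library size across the 12 libraries. Tests used the edgeR quasi-likelihood method (edgeR 4.0.16, R 4.3.3, limma 3.58.1; filterByExpr, TMM, Benjamini-Hochberg adjustment over all genes tested, threshold 0.05). BPA was tested within each stage on 6 libraries, and the stage comparisons and the interaction in 1 fit of 12 libraries with 4 groups. Standard errors derive from the F statistic. The fitting code was tested on simulated data. As alternatives the fits were repeated with RLE size factors, unscaled library sizes, all genes unfiltered, DESeq2 1.42.0, the replicate number as a block, the other set of libraries, unlisted genes as 9 counts, and each replicate left out. Genes were named by a rule: the 14 largest called changes in untreated cells, up to 12 in PGCLCs with BPA, the 5 smallest p-values in EpiLCs, up to 6 for the interaction, their complex partners, up to 4 called genes per other list and comparison, and the 5 genes most alike. The members and lists were chosen with earlier results of these data known. Groups follow sample titles; 1 untreated EpiLC description carries another replicate number than its title.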

Additional observations from a re-analysis of the deposited data

Results flagged for a closer look

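The BPA effect differed between the stages for Rrm2 by the interaction test. Its log2 effect was lower in PGCLCs than in EpiLCs by a difference of -0.64 (edgeR adjusted p = 0.023). The call was lost in 7 of 18 alternative analyses, with adjusted p up to 0.091.

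The same test found a difference for Cdk6, a D cyclin partner kinase of the comparison lists. Its level was 34.1, 36.2 and 29.7 CPM in untreated EpiLCs, 34.8, 38.7 and 32.8 CPM in BPA-treated EpiLCs, 18.7, 27.2 and 21.3 CPM in untreated PGCLCs and 9.75, 10.4 and 10.9 CPM in PGCLCs of the BPA arm. The 2 EpiLC groups overlapped and the 2 PGCLC groups did not. The interaction was -1.20 on the log2 scale (edgeR adjusted p = 0.016), and leaving out replicate 1 or 2 of BPA-treated EpiLCs or replicate 1 or 2 of the BPA-arm PGCLCs moved the adjusted p to between 0.050 and 0.061.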

How the results depend on the processing

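Leaving aside complex partners and the genes most alike, no log2 change tested for a gene named by the rule changed direction under its alternatives. Complex partners and the genes most alike were not part of this check. The direction of partners with changes near 0, such as Rfc1 in the untreated stage comparison (log2 -0.01), may therefore depend on the setting. The EpiLC members' median log2 change, near 0, ran from -0.05 to 0.01 and changed sign, as did the all-gene medians of both BPA comparisons. In the untreated stage comparison 21 of 32 called members, in the BPA arm 23 of 38 and in the PGCLC BPA comparison 2 of 7 were called under every alternative. The count of called members in PGCLCs with BPA, 7 in the main analysis, was 14 with DESeq2 and 11 with unlisted genes set to 9 counts, and 2 to 14 when each replicate was left out. Calls over all genes, 2321 in the main analysis, were 3462 with DESeq2 and 2685 with unlisted genes set to 9 counts. The count in the BPA-arm stage comparison, 38, was 24 with unlisted genes set to 9 counts, where the median log2 change of members was -0.32 and Rfc2 and Pola2 lost their calls. In the untreated stage comparison the same setting gave 23 called members, 2 of them higher, against 32, and a median of -0.23 against -0.46. The count for the interaction, 1, was 2 with RLE factors, 2 with no filter, 4 with DESeq2, 2 with unlisted genes set to 9 counts, and 0 to 4 when each replicate was left out. Interaction calls over all genes, 232 in the main analysis, were 228 with RLE factors, 278 with no filter, 900 with DESeq2 and 519 with unlisted genes set to 9 counts, and 83 to 767 when each replicate was left out. The EpiLC count was 0 under all of them. Causes of these shifts were not tested.

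With the replicate block, the counts were 31 and 38 for the stage comparisons in untreated cells and the BPA arm, 5 for BPA in PGCLCs, 0 for BPA in EpiLCs and 0 for the interaction. Same-numbered libraries deviated from their group means with correlations of -0.021 to 0.057, and not every library correlated best with its own number, so the numbers were not taken as pairs.

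With 3 libraries a group, standard errors of 0.09 to 0.26 on the log2 scale for the members set the size of change detectable in EpiLCs.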
